A study of Mus musculus with 12 samples.

Results

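The 9 genes described here are small nucleolar RNA (snoRNA) host genes, long transcripts with little or no known coding role whose introns hold snoRNAs: Zfas1, Gas5, Snhg1, Snhg3, Snhg5, Snhg6, Snhg8, Snhg12 and Snhg15. They were taken by name from the table of 46078 genes through their Ensembl identifiers. The list was drawn up around Zfas1, which was selected on its own values in these libraries, a higher level after VSG and a lower level after Sham-WM, so its values below are a description and carry no test. Of the 9 genes, 8 had a row in the table and 7 passed the filter on low counts, which left 6 genes other than Zfas1 for testing.

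Liver RNA was sequenced from 12 male C57BL/6 mice (C57BL/6J in the study's methods) with diet-induced obesity, labelled as 21 weeks old, in 3 groups of 4 separate animals that had all been fed a high fat diet. VSG mice had a vertical sleeve gastrectomy, in which most of the stomach is removed. Sham-WM mice had sham surgery and were then given less food so that their body weight followed that of the VSG mice, and Sham-Ad lib mice had sham surgery and ate freely. Comparing VSG with Sham-WM asks what differs in the liver between mice after surgery and food-restricted mice of a similar body weight. The study reports a greater cumulative food intake in VSG than in Sham-WM mice. Effects of surgery and of food restriction therefore cannot be told apart in this comparison. Both other comparisons share the Sham-Ad lib animals as their reference.

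SnoRNAs guide the chemical modification of ribosomal RNA and other small RNAs in the nucleolus. Box C/D snoRNAs direct 2′-O-methylation through the protein fibrillarin, and box H/ACA snoRNAs direct pseudouridylation through dyskerin. Most vertebrate snoRNAs are cut out of the introns of a host transcript. The spliced remainder of many non-coding hosts is short-lived, because translation of a short open reading frame exposes it to nonsense-mediated decay, and many hosts begin with a terminal oligopyrimidine (TOP) tract, the run of C and T letters that also opens the mRNAs of ribosomal proteins. Gas5 was first known as a transcript that builds up in growth-arrested cells, and Zfas1 as the antisense partner of Znfx1.

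In GENCODE M21, on GRCm38 (mm10), the 9 genes held 33 annotated snoRNA genes on their own strand. In the transcript of each host with the most exons, all 33 lay within introns. Gas5 (ENSMUSG00000053332, chr1:161034422-161038539, plus strand) held 10 in a transcript of 12 exons, Snhg1 held 8, Snhg12 5 and Zfas1 3. Snhg3 and Snhg5 held 2 each, and Snhg6, Snhg8 and Snhg15 held 1 each. Snord80 in Gas5 and Snora16a in Snhg12 are each annotated as a pair of overlapping entries.

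The 3 snoRNAs of Zfas1 (ENSMUSG00000074578, chr2:167062934-167065862, plus strand) are printed because they are what this host carries. All belong to the box C/D class, and the capitals mark the box C letters TGATGA within the first 20 bases and the box D letters CTGA within the last 15 bases. They are Gm25878 (chr2:167063473-167063565), Gm23201 (chr2:167064998-167065086) and Snord12 (chr2:167065276-167065365), of 93, 89 and 90 bases.
Gm25878: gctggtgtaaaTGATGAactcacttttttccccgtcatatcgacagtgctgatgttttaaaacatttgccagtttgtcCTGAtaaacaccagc
Gm23201: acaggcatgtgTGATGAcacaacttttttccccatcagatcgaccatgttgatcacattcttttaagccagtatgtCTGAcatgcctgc
Snord12: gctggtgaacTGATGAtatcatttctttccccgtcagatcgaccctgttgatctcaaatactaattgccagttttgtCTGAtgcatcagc
Aligned end to end, Gm25878 and Snord12 shared 76.5% of the aligned positions, Gm23201 and Snord12 70.4%, and Gm25878 and Gm23201 65.7%. In box C/D snoRNAs, the stretch just before a box D is the part that pairs with the target RNA.

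Promoters from RefSeq (GRCm38.p6) were found for 8 of the 9 hosts, with a pair of starts for Gas5 and none for Snhg6, which made 9 starts. A run of at least 6 letters C or T on the transcribed strand, reaching within 10 bases of the start, was present at 5 of these 9 starts (55.6%) and at 29.2% of all 32851 promoters. A run of at least 8 letters was present at 2 of 9 (22.2%) against 13.7%. The shorter minimum was chosen after the sequences had been seen. The starts of 4 hosts with such a run and of Zfas1, whose longest run was 4 letters, are shown with 30 bases on each side of the start, and capitals mark the longest run.
Zfas1, chr2:167062904-167062963: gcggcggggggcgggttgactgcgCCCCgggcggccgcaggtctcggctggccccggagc
Gas5, second start, chr1:161035136-161035195: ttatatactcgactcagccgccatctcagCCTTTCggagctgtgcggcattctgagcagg
Snhg12, chr4:132308648-132308707: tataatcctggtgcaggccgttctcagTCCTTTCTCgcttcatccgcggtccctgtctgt
Snhg8, minus strand, chr3:123508307-123508366: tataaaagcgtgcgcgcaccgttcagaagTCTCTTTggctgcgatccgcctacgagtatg
Snhg5, minus strand, chr9:88522868-88522927: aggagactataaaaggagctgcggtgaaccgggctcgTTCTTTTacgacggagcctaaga
The letters TATAAA, the core of a TATA box, began between 40 and 20 bases before the start on the transcribed strand in Snhg8 and Snhg5, which is 2 of 9 starts (22.2%) against 1.99% of all promoters. The E-box letters CACGTG, searched on both strands over 300 bases, were in 1 of 9 promoters (Snhg15, 11.1%) against 7.15%, and CCGGAA, the core of an ETS site, was in 2 of 9 (22.2%) against 14.9%. These matches describe the letters and no binding was measured.

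Library totals lay between 15122520 and 19384076 counts. The labels of these samples conflict: each sample's title gives a group and an animal number, and each library name carries an animal number, but a second field ties the titles to libraries of other animals, which would move 8 of the 12 libraries to another group. Libraries were grouped by the animal number shared by title and library name, and are named by it (library 11F, for example). Numbers in the library names also run in 1 block for each group, and an effect that followed these numbers cannot be told apart from treatment. With libraries grouped by the second field, edgeR called 0 of 13054 genes in each of the 3 comparisons, so every edgeR call given here is lost under that field. At an unadjusted p under 0.05 it then had 465 genes in VSG against Sham-Ad lib, 715 in Sham-WM against Sham-Ad lib and 158 in VSG against Sham-WM. Differences were tested with edgeR's quasi-likelihood test on 13054 genes with Benjamini-Hochberg adjustment, and a gene was called at an adjusted p under 0.05. Levels are CPM, counts scaled to library size with TMM factors, given as mean ± SD with n = 4. In whole liver, a change in the number of cells of a type and a change in RNA per cell cannot be told apart.

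Per kb of annotated exon in Sham-Ad lib mice, Snhg8 had the highest level of the 7 hosts that passed the filter, at 11.5 ± 1.03 CPM per kb (SD, n = 4). Snhg6 followed at 5.36 ± 0.285 and Gas5 at 4.58 ± 0.614 CPM per kb, and their ranges over libraries overlapped. Snhg12 at 2.19 ± 0.595, Snhg5 at 2.05 ± 0.35 and Zfas1 at 1.96 ± 0.271 CPM per kb also overlapped. Snhg15 was lowest at 0.523 ± 0.325 CPM per kb, with 5 to 21 counts per library. Exon length here is the union of all annotated exons, retained introns included. The per-length level of hosts such as Gas5 (3760 bases of union, 502 bases in the transcript with the most exons) is therefore a low estimate. For Snhg8 these lengths are 853 and 448 bases, so the order of the hosts depends on which length is used.

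Zfas1, the gene that chose this list, had 84, 116, 103 and 103 counts in Sham-Ad lib libraries 3F, 4F, 6F and 10F. The counts were 53, 50, 61 and 51 in Sham-WM libraries 2F, 9F, 15F and 16F, and 195, 152, 236 and 182 in VSG libraries 1F, 8F, 11F and 18F. The 3 groups did not overlap, with Sham-WM lowest and VSG highest. As CPM, the means were 5.74 ± 0.794 for Sham-Ad lib mice, 2.81 ± 0.237 for Sham-WM mice and 11.9 ± 4.25 for VSG mice (SD, n = 4). The fitted log2 fold change was 1.05 (SE 0.22) for VSG and -1.03 (SE 0.23) for Sham-WM against Sham-Ad lib, and 2.07 (SE 0.23), or 4.21-fold, for VSG against Sham-WM. Leaving out any library kept the value for VSG against Sham-Ad lib between 0.78 and 1.17, and with any library left out the value for VSG against Sham-WM stayed between 1.82 and 2.21. Because Zfas1 was selected on these same values, the gaps between groups and these ranges only describe it. Grouping by the second label field gave -0.03 for VSG against Sham-Ad lib, -0.44 for Sham-WM against Sham-Ad lib and 0.41 for VSG against Sham-WM.

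**Figure D1:**
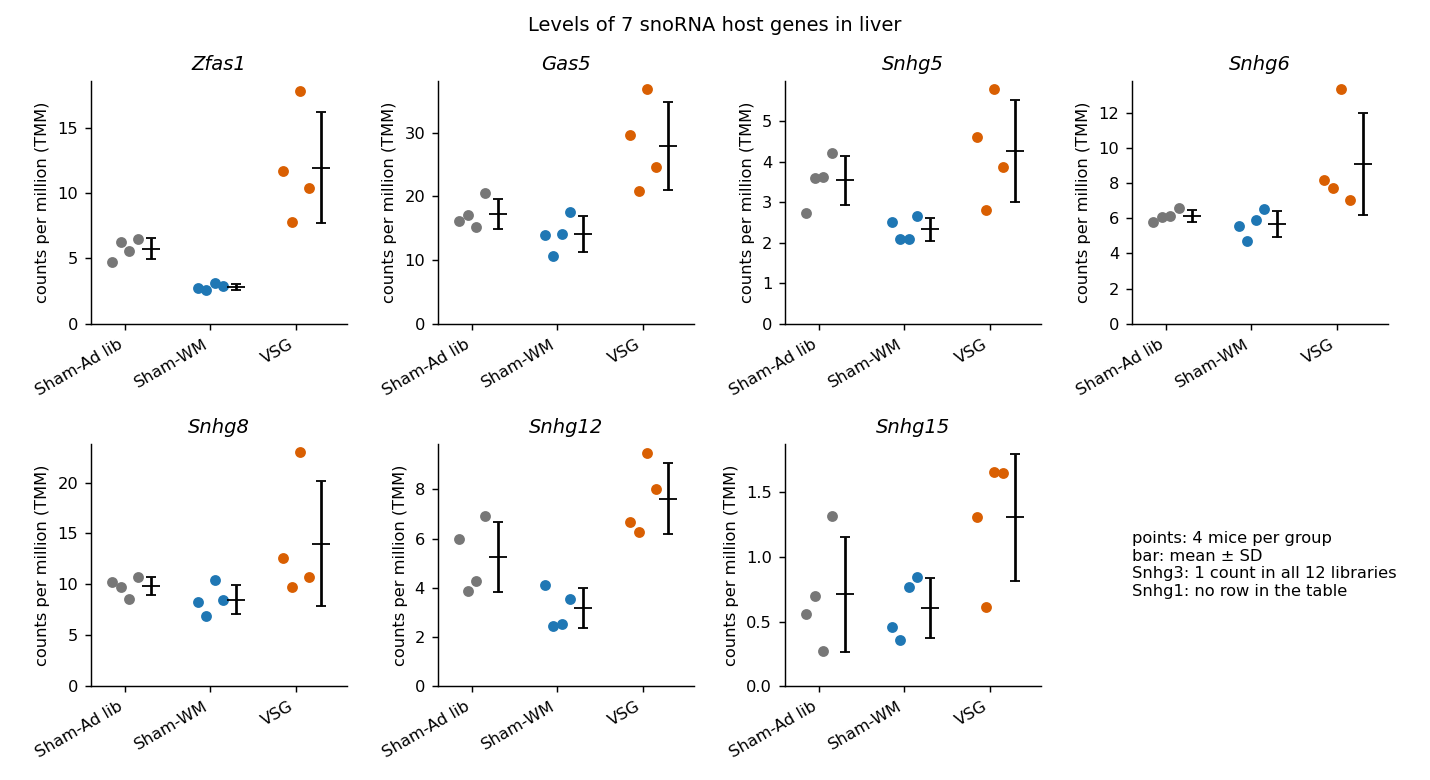
Level of the 7 host genes that passed the filter in CPM (y axis, from 0) in each mouse of the 3 groups, with the mean and SD beside the points. Zfas1 lies between 7.76 and 17.8 CPM in VSG mice and between 2.56 and 3.11 in Sham-WM mice, and library 11F is the highest VSG point in all 7 panels.

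Between VSG and Sham-WM mice, 5 of the 6 other tested hosts were higher after VSG: Gas5, Snhg5, Snhg6, Snhg8 and Snhg12. Over all genes tested, 15.0% were called higher in this comparison and 26.9% were called in either direction. The median log2 fold change of the 6 hosts was 0.93, beside 0.03 over all tested genes. The levels of 4 of the 6 (Gas5, Snhg5, Snhg6 and Snhg12) did not overlap between the groups, against 26.2% of all genes. The sixth, Snhg15, had the same sign but was not called.

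Snhg12 (ENSMUSG00000086290, chr4:132308623-132311024, plus strand), host of the box H/ACA RNAs Snora16a, Snora44 and Snora61 and of the box C/D RNA Snord99, had the largest difference of the 5. Its level was 4.13, 2.46, 2.55 and 3.55 CPM in Sham-WM libraries 2F, 9F, 15F and 16F and 6.69, 6.28, 9.49 and 8.02 CPM in VSG libraries 1F, 8F, 11F and 18F. Every VSG mouse was above every Sham-WM mouse. The log2 fold change was 1.26 (SE 0.24), or 2.4-fold, with an adjusted p of 0.00295 in edgeR's test. The exact two-sided permutation test of mean log2 CPM gave p = 0.0286, the smallest that 4 mice against 4 allow.

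Gas5, which carries Snord47, Snord78 and Snord80 among its box C/D RNAs, was the most counted of the hosts, with between 209 and 496 counts per library. It had 13.9, 10.7, 14.1 and 17.6 CPM in Sham-WM libraries 2F, 9F, 15F and 16F. The 4 VSG libraries 1F, 8F, 11F and 18F had 29.6, 20.8, 36.8 and 24.6 CPM. Here too the groups did not overlap. The log2 fold change was 0.99 (SE 0.18), or 1.98-fold (edgeR adjusted p = 0.00284, exact permutation p = 0.0286), and it was called in all 12 fits that left out 1 library.

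Snhg5 (ENSMUSG00000097195, chr9:88521050-88522929, minus strand), host of Snord50a and Snord50b, had between 2.09 and 2.65 CPM in Sham-WM mice and between 2.81 and 5.8 CPM in VSG mice. The groups stood apart by a narrow gap, with library 8F the lowest VSG mouse. The log2 fold change was 0.86 (SE 0.23; edgeR adjusted p = 0.0169), and the adjusted p was 0.0517 without library 15F. Snhg6 (ENSMUSG00000098234, chr1:9941959-9944118, minus strand), host of Snord87, had between 4.71 and 6.53 CPM in Sham-WM mice and between 7.05 and 13.4 CPM in VSG mice. Its groups did not overlap, and the log2 fold change was 0.68 (SE 0.19; edgeR adjusted p = 0.0235). The call held in 10 of 12 fits that left out 1 library, with the highest adjusted p, 0.0626, without library 9F.

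Snhg8 (ENSMUSG00000104960, chr3:123507552-123508404, minus strand), host of the box H/ACA RNA Snora24, had 8.31, 6.86, 10.4 and 8.5 CPM in Sham-WM libraries 2F, 9F, 15F and 16F and 12.6, 9.7, 23 and 10.7 CPM in VSG libraries 1F, 8F, 11F and 18F. Library 15F lay above library 8F, so the groups overlapped, and library 11F was far above the other VSG mice. The log2 fold change was 0.71 (SE 0.24; edgeR adjusted p = 0.0416), while the exact permutation test gave p = 0.0571. The call held in 4 of 12 fits that left out 1 library, and the log2 fold change was 0.37 at its lowest among them.

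The number of called hosts in VSG against Sham-WM was 5 with DESeq2 as well, where 27.8% of all genes were called. It fell to 3 (Gas5, Snhg5 and Snhg12) without Sham-WM library 9F and to 3 (Gas5, Snhg8 and Snhg12) without Sham-WM library 15F, with 21.5% and 16.8% of all genes called. It was 3 when only these groups were fitted, where 20.9% of all genes were called, and 1 (Snhg12) with 2 RUVs factors of unwanted variation, a method of the kind the study used, where 4.01% were called. It was 0 with libraries grouped by the second label field, where the log2 fold changes of the 5 called hosts were 0.41 for Gas5, 0.17 for Snhg5, 0.11 for Snhg6, 0.26 for Snhg8 and 0.55 for Snhg12.

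**Figure D2:**
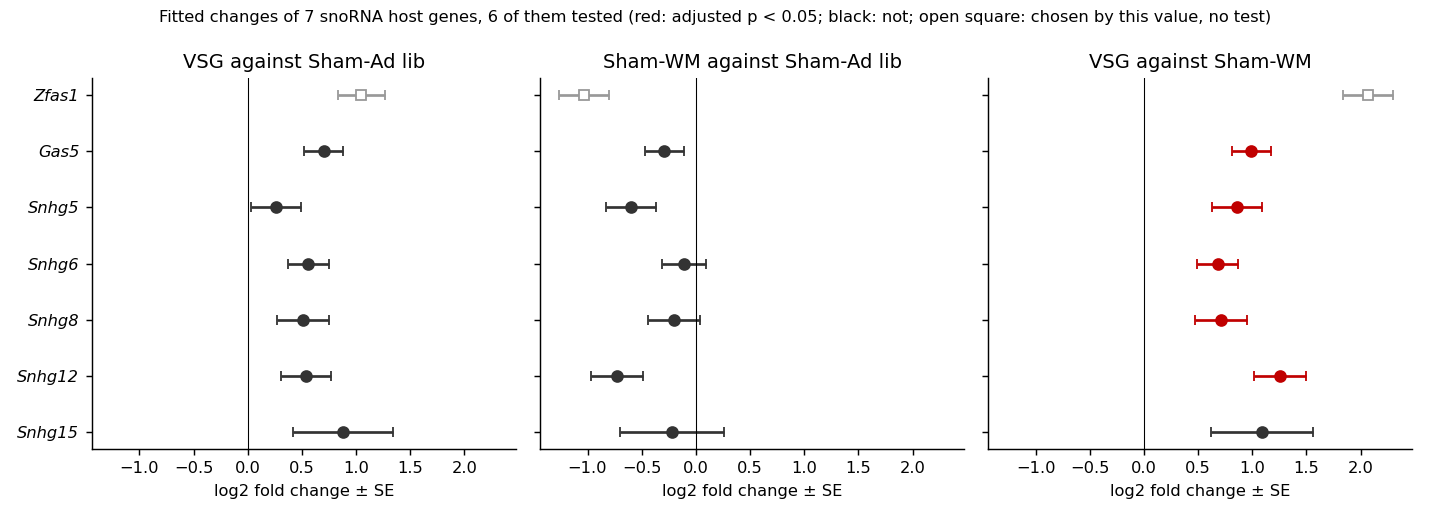
Fitted log2 fold change (x axis, ± SE) of 7 host genes in the 3 comparisons, of which Zfas1 (open squares) was not tested and the other 6 were. Points of VSG against Sham-WM all lie above 0, from 0.68 for Snhg6 to 2.07 for Zfas1, and red points (5 genes) had an adjusted p under 0.05, whereas both comparisons with Sham-Ad lib show none in red.

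Against Sham-Ad lib, none of the 6 hosts was called after VSG with edgeR, where 0.751% of all genes were called. At an unadjusted p under 0.05 there were 3 of 6 (Gas5, Snhg6 and Snhg12) beside 24.1% of all genes, and DESeq2 called 1, Gas5, with 8.42% of all genes called. The 6 log2 fold changes were all positive, from 0.26 for Snhg5 to 0.88 for Snhg15, with a median of 0.55 beside 0.03 for all genes. Gas5 had 16.2, 17, 15.2 and 20.5 CPM in Sham-Ad lib libraries 3F, 4F, 6F and 10F, so that its highest control lay just below its lowest VSG mouse. Its log2 fold change was 0.70 (SE 0.18), with an adjusted p of 0.0655 in edgeR and 0.0166 in DESeq2. Snhg6, between 5.8 and 6.59 CPM in the controls, also did not overlap (log2 fold change 0.56, SE 0.19, edgeR adjusted p = 0.113), which made 2 of 6 hosts against 9.21% of all genes. For both genes the exact permutation p was 0.0286. By the second label field, the log2 fold changes of Gas5, Snhg5, Snhg6, Snhg8 and Snhg15 turned negative, from -0.07 to -0.33.

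In Sham-WM against Sham-Ad lib mice all 6 log2 fold changes were negative, with a median of -0.25 beside 0.00 for all genes, and none was called with edgeR, which called 6.99% of all genes. At an unadjusted p under 0.05 there were 2 of 6 (Snhg5 and Snhg12) beside 21.6% of all genes, and DESeq2 called 1, Snhg12, with 9.94% of all genes called. Snhg12 had 5.97, 3.86, 4.27 and 6.9 CPM in Sham-Ad lib libraries 3F, 4F, 6F and 10F, and library 4F lay below the highest Sham-WM mouse. Its log2 fold change was -0.73 (SE 0.24), with an adjusted p of 0.0874 in edgeR and 0.0402 in DESeq2. Snhg5 had between 2.73 and 4.2 CPM in Sham-Ad lib mice, above all 4 Sham-WM mice (log2 fold change -0.60, SE 0.23, edgeR adjusted p = 0.146, exact permutation p = 0.0286), the 1 host of 6 whose groups did not overlap, against 17.6% of all genes. Gas5 (-0.29), Snhg8 (-0.20) and Snhg6 (-0.11) had smaller log2 fold changes with adjusted p-values from 0.399 to 0.801 in edgeR's test. With libraries grouped by the second label field, the log2 fold changes of the 6 hosts lay between -1.22 (Snhg15) and -0.27 (Snhg5).

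Snhg15 (ENSMUSG00000085156, chr11:6525591-6528760, minus strand), host of the box H/ACA RNA Snora9, was measured with the fewest counts of the tested hosts. In the order given for Zfas1, Sham-Ad lib libraries had 10, 13, 5 and 21 counts, Sham-WM libraries 9, 7, 15 and 15, and VSG libraries 22, 12, 22 and 29. All 3 groups overlapped. The log2 fold change was 1.09 (SE 0.47; edgeR adjusted p = 0.0963) for VSG against Sham-WM and 0.88 (SE 0.46; edgeR adjusted p = 0.261) for VSG against Sham-Ad lib. For Sham-WM against Sham-Ad lib it was -0.22 (SE 0.48), and 0.24 without library 10F.

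Snhg3 (ENSMUSG00000085241, chr4:132348014-132353686, minus strand), host of Snora73a and Snora73b, had 1 count in all 12 libraries together, in VSG library 8F. Of its 986 exon bases, 135 are shared with Rcc1 on the same strand and 705 with Gm17300 on the opposite strand, and how reads on 2 overlapping genes were counted is not given in the sources used here. Snhg1 (ENSMUSG00000108414, chr19:8723475-8726443, plus strand) had no row in the table used here. The 8 snoRNA genes inside it did have rows, and they held 238 counts in all, from 13 to 87 per row. Their sum per library was 11 to 20 counts for Sham-Ad lib, 14 to 23 for Sham-WM and 12 to 46 for VSG mice, and the groups overlapped.

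Of the 25 snoRNA rows inside the 8 hosts with a row of their own, 24 were at 0 in every library and 1, Snord87 in Snhg6, had 1 count. The libraries were made from poly(A) RNA, and mature snoRNAs carry no poly(A) tail. Most of these rows also lie wholly on annotated host exons, retained introns included, such as Gm25878 in Zfas1 (93 of 93 bases shared). Reads there overlap the host's own row, and how such reads were counted is not given. These rows therefore give no snoRNA level, and the cause of their low counts was not tested. Whether a host RNA and its snoRNAs moved together could not be seen in these data.

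The hosts also varied together among the mice of a group, but some genes outside the list varied with Zfas1 as closely. Over the 12 libraries, Pearson's r of log2 CPM with Zfas1 was 0.924 for Gas5, 0.902 for Snhg5, 0.869 for Snhg12, 0.849 for Snhg6, 0.816 for Snhg8 and 0.681 for Snhg15, and its median over all tested genes was 0.037. By this r the 6 hosts ranked from 58 (Gas5) to 1800 (Snhg15) among the 13054 tested genes. After the mean of each group was removed, r was between 0.605 and 0.887 for 5 of the 6 and 0.307 for Snhg12, beside a median of 0.020 over all genes. For the other tested non-coding hosts described below, this within-group r ran from 0.175 (Snhg18) to 0.856 (Snhg14). Among the 6 hosts themselves, all 15 pairs had a positive r within groups, from 0.42 to 0.90. These correlations are descriptions over 12 libraries that share depth and treatment. The VSG library with the highest level of every host that passed the filter enters each of them. The 5 genes most like Zfas1 over the 12 libraries were Snx2 (0.970), 2410006H16Rik (0.966), Uqcc3 (0.965), AI413582 (0.964) and Selenow (0.962), where 2410006H16Rik is itself a snoRNA host. Within groups their r with Zfas1 ran from 0.684 (2410006H16Rik) to 0.915 (Selenow), so a high within-group r was not limited to the 6 hosts.

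Of 13 other non-coding snoRNA host genes that were listed, 9 had a row and 7 passed the filter. Epb41l4aos and 2410006H16Rik, host of Snord49a, Snord49b and Snord65, were called in both comparisons that involve Sham-WM mice, which made 28.6% of the 7 in each, beside 26.9% of all genes in VSG against Sham-WM and 6.99% in Sham-WM against Sham-Ad lib. All these calls were lost with libraries grouped by the second label field. Sham-Ad lib libraries 3F, 4F, 6F and 10F had 6.08, 5.1, 5.3 and 8.85 CPM of 2410006H16Rik, Sham-WM libraries 2F, 9F, 15F and 16F 2.85, 2.97, 3.37 and 2.59, and VSG libraries 1F, 8F, 11F and 18F 13.8, 7.81, 15.1 and 12.3. The Sham-WM mice lay below all others. Its log2 fold change was 2.05 (SE 0.23; edgeR adjusted p = 0.000169) for VSG against Sham-WM, -1.10 (SE 0.23; edgeR adjusted p = 0.0129) for Sham-WM against Sham-Ad lib, and 0.95 (SE 0.22; edgeR adjusted p = 0.053) for VSG against Sham-Ad lib.

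Epb41l4aos, a non-coding RNA with 1 nested snoRNA gene, had 4.63, 3.7, 3.3 and 5.08 CPM in the Sham-Ad lib libraries in the same order, 1.58, 1.02, 2.09 and 1.63 in those of Sham-WM mice and 6.03, 4.75, 8.81 and 6.54 in those of VSG mice. Here too the Sham-WM mice were lowest. Its log2 fold change was 2.04 (SE 0.26; edgeR adjusted p = 0.000356) for VSG against Sham-WM and -1.40 (SE 0.26; edgeR adjusted p = 0.00692) for Sham-WM against Sham-Ad lib. The other 5 (Snhg11, Snhg14, Snhg17, Snhg18 and Snhg20) were not called in any comparison, with log2 fold changes for VSG against Sham-WM from 0.08 for Snhg14 to 1.18 for Snhg11. Snhg9 and Dancr had at most 8 counts in any library and were not tested.

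Of 31 protein-coding snoRNA host genes, 9 were called higher and none lower in VSG against Sham-WM with edgeR, 22 were not called, and the median log2 fold change was 0.33. The called share was 29.0%, beside 26.9% of all genes called in either direction and 15.0% called higher. The 4 with the smallest p were Eif4a2, an RNA helicase of translation initiation (0.95, SE 0.16), Taf1d, a subunit of the RNA polymerase I selectivity factor (0.89, SE 0.20), the ribosomal protein gene Rpl13a (0.84, SE 0.23) and the elongation factor subunit Eef1b2 (0.63, SE 0.18). Only Eif4a2 was called lower in Sham-WM against Sham-Ad lib (-0.71, SE 0.16, edgeR adjusted p = 0.0201). None of the 31 was called in VSG against Sham-Ad lib with edgeR, where 0.751% of all genes were called, and 19 had an unadjusted p under 0.05 beside 24.1% of all genes.

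The 22 genes of the translation machinery with a TOP tract share 6 genes with the previous list. In VSG against Sham-WM, 14 of the 22 (63.6%) were called higher and none lower, beside 15.0% of all genes called higher, with a median log2 fold change of 0.45. They included Eif4b (0.83, SE 0.15), the nucleolar protein Npm1 (0.54, SE 0.11), the poly(A)-binding protein Pabpc1 (0.63, SE 0.13) and Eif3f (0.37, SE 0.09). Eif4b was the 1 gene called in Sham-WM against Sham-Ad lib, where it was lower by -0.83 on the log2 scale (SE 0.15, edgeR adjusted p = 0.00604). With 2 RUVs factors the calls in VSG against Sham-WM were 1 of 22 TOP genes and 1 of 31 protein-coding hosts, where 4.01% of all genes were called. With only these groups fitted they were 5 of 22 and 5 of 31, where 20.9% of all genes were called.

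Of 18 genes for proteins that bind snoRNAs or assemble snoRNPs, 1 was called higher in VSG against Sham-WM, Rpap3, a cofactor of the R2TP assembly complex (1.08, SE 0.24), and 1 lower, Nolc1, a nucleolar chaperone of snoRNPs (-0.58, SE 0.17), with a median of 0.11. The called share was 11.1%, below the 26.9% of all genes. Of 16 nonsense-mediated decay factors, 4 were called lower and none higher: the helicase Upf1 (-0.50, SE 0.12), the kinase Smg1 (-0.56, SE 0.19), its regulator Smg9 (-0.38, SE 0.12) and the exonuclease Xrn1 (-0.41, SE 0.14), with a median of -0.16. Of all genes, 26.9% were called in either direction and 11.9% were called lower. The called share of the 16 factors was near the share called in either direction and above the share called lower. These 4 calls became 1 when only these groups were fitted and 0 with 2 RUVs factors, where 20.9% and 4.01% of all genes were called. Among 22 ribosome biogenesis and RNA polymerase I factors the calls were split, 5 higher and 6 lower, with a median of -0.12. Both shares were above those of all genes in VSG against Sham-WM, 15.0% called higher and 11.9% called lower. The 4 with the smallest p, Utp20 (-0.87, SE 0.11), Rrp12 (-1.11, SE 0.18), Bop1 (-0.61, SE 0.11) and Nat10 (-0.62, SE 0.11), all processing or modifying ribosomal RNA, were lower in VSG than in Sham-WM mice and were also called higher in Sham-WM than in Sham-Ad lib mice. In that comparison 5 of the 22 (22.7%) were called, all higher, beside 6.99% of all genes called.

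**Figure D3:**
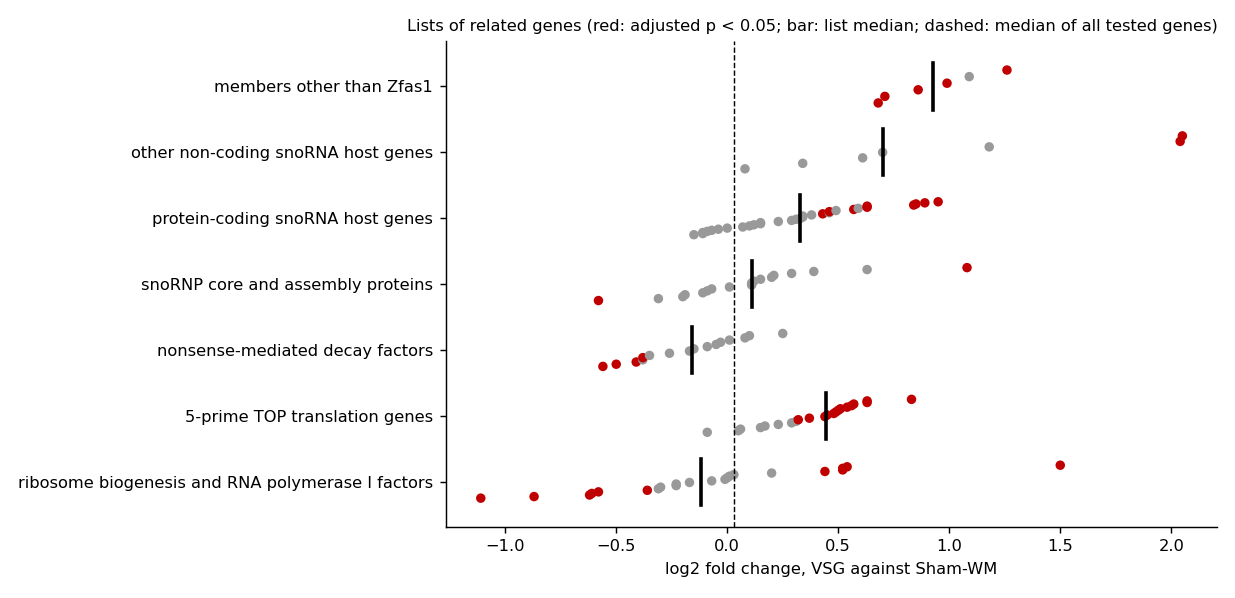
Log2 fold change of VSG against Sham-WM (x axis) for each tested gene of 7 lists, with the list median as a bar and the median of all tested genes (0.03) as a dashed line. The 6 hosts other than Zfas1 have a median of 0.93, the 22 TOP genes 0.45 and the 16 decay factors -0.16, and red points had an adjusted p under 0.05.

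Among genes that neighbour the hosts, Znfx1, a helicase gene whose start lies 81 bases from that of Zfas1 on the opposite strand and shares 82 exon bases with it, had a log2 fold change of -0.04 (SE 0.13) for VSG against Sham-WM. Sham-Ad lib mice had 53.3 ± 6.05 CPM of it, Sham-WM mice 48.9 ± 5.74 and VSG mice 47.6 ± 7.01 (SD, n = 4), and the groups overlapped. Zbtb37, which starts 427 bases from Gas5 on the opposite strand, had -0.13 (SE 0.22). Slc3a2, a subunit of amino acid transporters that starts next to Snhg1 on the opposite strand, had -0.17 (SE 0.14). Rcc1, which starts 81 bases from Snhg3, had 0.07 (SE 0.23) and Mcmdc2, which overlaps the end of Snhg6 by 127 exon bases, -0.31 (SE 0.57). None of these 5 genes was called in any of the 3 comparisons with edgeR, and the lowest adjusted p was 0.106, for Rcc1 in VSG against Sham-Ad lib.

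Markers of immune cells were also higher in VSG mice. In VSG against Sham-WM, 6 of 6 Kupffer cell markers, 4 of 4 tested neutrophil markers and 5 of 7 tested B and plasma cell markers were called higher, and 2 of 6 hepatocyte markers were called lower. The summed level of the Kupffer cell markers reached 183 CPM at most in Sham-WM mice and 376 in Sham-Ad lib mice, and lay between 389 and 1118 CPM in VSG mice. The neutrophil markers summed to 1.46 to 2.34 CPM in Sham-WM mice, 0.595 to 10.9 in Sham-Ad lib mice and 18.3 to 613 in VSG mice. No listed marker was at 0 in every library. Among VSG mice, the neutrophil sum was highest in library 1F (613 CPM), then 8F (239), 11F (95.4) and 18F (18.3), whereas the sum of the 8 host genes was highest in library 11F, followed by 1F (74.7), 18F (66.3) and 8F (55.8). In Sham-WM against Sham-Ad lib, none of these immune markers was called with edgeR and none had an unadjusted p under 0.05. Their log2 fold changes there were negative for 6 of 6 Kupffer cell markers (median -0.34), 4 of 4 neutrophil markers (median -0.68) and 5 of 7 B and plasma cell markers (median -0.18). Cycling cell markers were called higher for 3 of 5 tested genes in VSG against Sham-WM, and their sum was 7.27 to 9.91 CPM in Sham-WM and 9.33 to 44.2 CPM in VSG mice. The part of these cells in the host gene differences was not tested. The hepatocyte markers, which mark the labelled tissue, summed to 121140 to 149570 CPM in Sham-WM, 101905 to 124394 in Sham-Ad lib and 78866 to 123251 in VSG mice, with a median of 133971 in Sham-WM and 85015 in VSG mice. The most abundant markers weigh most in such a sum. In VSG against Sham-WM the median log2 fold change of the 6 markers was -0.15, with 4 negative and 2 positive. Albumin (Alb) alone took 9.46% to 12.2% of the counts of Sham-WM libraries and 4.89% to 9.15% of those of VSG libraries, which did not overlap. In VSG libraries 1F, 8F, 11F and 18F the albumin share was 5.71%, 5.39%, 4.89% and 9.15%. The part of albumin in the host gene differences was not tested.

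**Figure D4:**
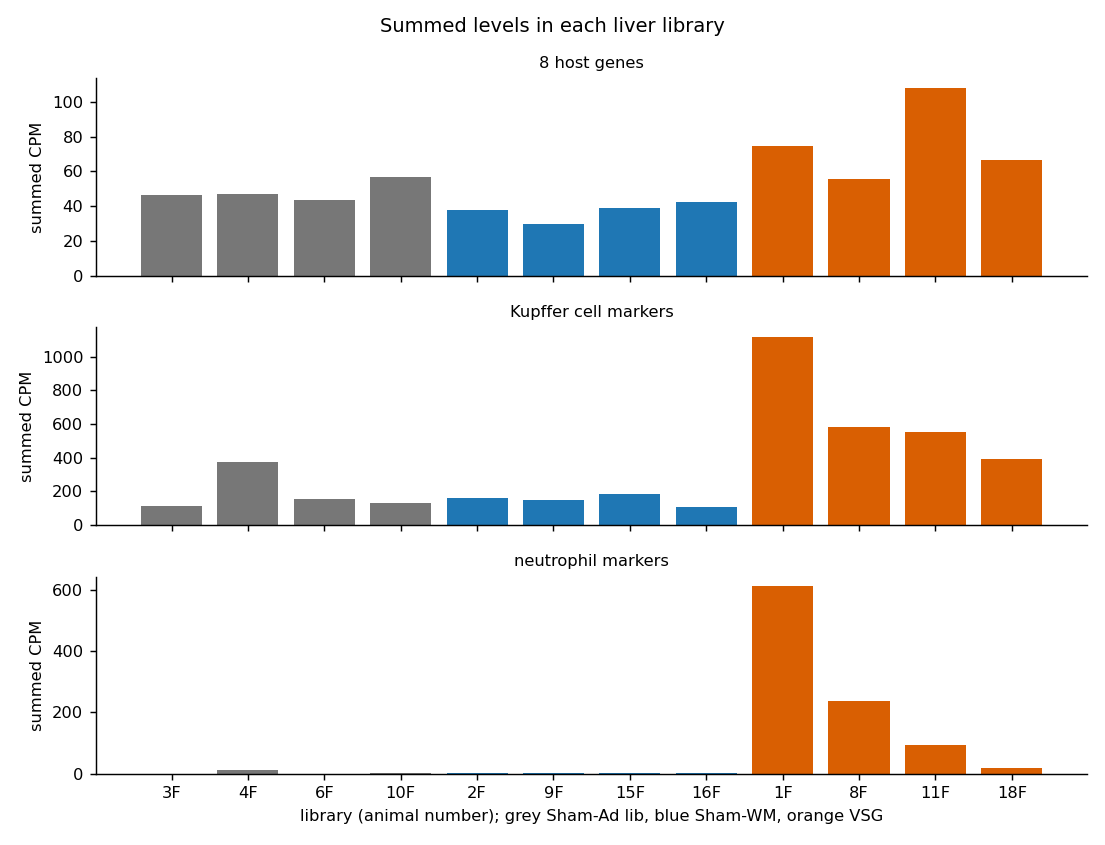
Summed CPM (y axis, from 0) of the 8 host genes with a row, of the Kupffer cell markers and of the neutrophil markers in each of the 12 libraries. In the host gene panel, VSG library 8F (VSG in orange), at 55.8 CPM, lies just under Sham-Ad lib library 10F at 56.7. In the marker panels the 4 VSG libraries lie above all others. VSG library 18F is close to Sham-Ad lib library 4F there, at 389 against 376 CPM for Kupffer cells and 18.3 against 10.9 for neutrophils. The order of the VSG libraries differs between the panels.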

How the data were processed

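Poly(A) RNA libraries of 12 mouse livers were made by the authors with a directional kit, and paired reads were aligned to mm10 with TopHat2 2.1.1 and counted on genes with featureCounts. The deposited values are raw counts, with no normalisation. The annotation release and the use of strand or of reads on overlapping genes are not given in the sources used here. Of 46078 identifiers, 45229 matched GENCODE M21, which gave symbols and positions. Libraries held 15122520 to 19384076 counts, and PCR duplicates were not marked by molecular identifiers.

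Counts were tested with edgeR 4.0.16 in R 4.3.3 (genes kept by filterByExpr at 10 counts, total 15, TMM, quasi-likelihood test, all 12 libraries in 1 fit, 3 contrasts, Benjamini-Hochberg adjustment over 13054 genes). Log2 CPM used a prior count of 2. Exact permutation tests were two-sided. Alternatives were DESeq2 1.42.0, other size factors, other filters, fits of the groups compared, 2 RUVs or RUVr factors written out from their definitions, the second label field for groups, and the omission of each library in turn. The scripts were tested on simulated data. Markers, related genes and members were listed with earlier results of these data known. Genes were named by rule: all members, their neighbours and nested snoRNAs, listed hosts, the 5 genes most correlated with Zfas1, and up to 4 called genes per related list with the smallest p in VSG against Sham-WM. Python 3.11.15 with pandas 2.3.3, SciPy 1.17.1 and Matplotlib 3.10.9 was used for the rest.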

Additional observations from a re-analysis of the deposited data

Results flagged for a closer look

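Signal outside the main comparisons was present on the 8 snoRNA rows nested in Snhg1, which held 238 counts over the 12 libraries. Snhg1 itself has no row in the table used here. Over 25 snoRNA rows in hosts with a row of their own, 1 count was present. No library stood apart by Dixon's test in the 21 groups of 4 values of the 7 hosts that passed the filter.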

How the results depend on the processing

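The number of the 6 hosts called in VSG against Sham-WM, 5 as reported, was 3 when only these groups were fitted, 1 with 2 RUVs factors and 0 with libraries grouped by the second label field. Of all genes, 26.9% were called as reported, 20.9% when only these groups were fitted and 4.01% with 2 RUVs factors. The number of hosts ranged from 3 to 5 when 1 library was left out. In VSG against Sham-Ad lib the number of hosts was 0 as reported, 1 with DESeq2 or without a filter, and 2 with 2 RUVr factors. Over all genes, 98 were called as reported, 1227 with DESeq2, 628 without a filter and 3031 with 2 RUVr factors. The number of hosts ranged from 0 to 1 when 1 library was left out. It was 1 without VSG library 8F or 18F, where 227 and 1089 genes were called. In Sham-WM against Sham-Ad lib the number of hosts was 0 as reported, 1 with DESeq2 or 2 RUVs factors, 2 with 2 RUVr factors, and 0 whichever library was left out. All genes called there numbered 912 as reported, 1404 with DESeq2, 1724 with 2 RUVs factors and 2162 with 2 RUVr factors. The cause of these shifts was not tested. Signs turned in 7 of 438 refitted log2 fold changes. Grouping by the second label field gave, for VSG against Sham-Ad lib, -0.03 for Zfas1, -0.07 for Gas5, -0.10 for Snhg5, -0.28 for Snhg6, -0.33 for Snhg8 and -0.20 for Snhg15, and leaving out 1 library gave from -0.49 to 0.24 for Snhg15 in Sham-WM against Sham-Ad lib, positive only without library 10F. Of 378 refitted counts of calls in the related lists, 122 moved by more than 1.5 times. Other size factors moved the median log2 fold change of all genes to between -0.01 and 0.06. No paired analysis was possible because the groups share no animal numbers. Snhg15 had 5 to 29 counts per library.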
